A study of Mus musculus with 4 samples.

Results

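T23 is a prostate tumor cell line, and its gene expression was set against that of normal mouse prostate. The comparison takes the T23 array and both arrays of normal prostate, 3 of the 4 bead arrays of the study, chosen by their labels. T23 came from a prostate tumor of a C57Bl/6 TRAMP mouse aged 30 weeks, and total RNA of the line was hybridised to 1 array. Normal prostate came from wild-type C57Bl/6 mice aged 18 weeks and gave 2 arrays, called normal 1 and normal 2. The remaining array holds T1525, a tumor line from a TRAMP mouse of the same strain and age, and its values are given beside those of T23 where they help to place them. Whether separate mice gave the 2 normal arrays is not in the labels, nor whether T23 is 1 clone. The p-values rest on how far that pair of arrays differ, which may be a technical spread. T23 itself has no replicate. Age, the TRAMP transgene, the tumor and growth in culture all go with the group and cannot be told apart.

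TRAMP mice carry the SV40 early region under a promoter of the probasin gene, which is active in the prostate epithelium under androgen. SV40 large T antigen binds the Rb family and p53, and small t antigen binds the phosphatase PP2A. Normal prostate holds secretory luminal cells, a layer of basal cells, and a stroma of smooth muscle, fibroblasts, vessels, nerves and leukocytes. A line grown from a tumor holds the cells that grew out of it in culture. In bulk RNA, fewer cells of a type and less RNA per cell cannot be told apart.

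Values are log2 of the deposited intensities. A value at or below 6.70, the upper edge of the dim peak that each array showed, is called at background. Each of the arrays had between 50.6% and 50.8% of 24613 probes above it. Across the 15700 probes above background on some array, which are not independent replicates, T23 correlated with normal 1 at r = 0.750 and with normal 2 at r = 0.734, and the normal pair at r = 0.963. Of 15967 named genes, 1842 were called higher in T23 than in normal prostate, 11.5% of all, and 1713 were called lower, 10.7% of all, by limma with an adjusted p under 0.05. Of the lower genes, 807 lay at background in T23, and of the higher genes 249 lay at background in both normal arrays. The median difference over all genes was 0.06 on the log2 scale. Higher genes made up 51.8% of the calls. Other scalings lowered that share, to 37.4% (1209 higher, 2027 lower) with each array centred on its median over probes above background, which shifted the median of all genes by -0.24, and to 38.6% (1287 higher, 2048 lower) with cyclic loess. Calls stated for named genes that the first of these ends are given below under the name median scaling. Without any test, 1482 genes (9.28%) lay at least 2-fold above each normal array and 1515 (9.49%) at least 2-fold below each. Where T23 or any normal array lay at background, that value was set to the threshold, and the fold is a bound written as at least. The p-value beside such a fold belongs to the fitted difference.

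**Figure D1:**
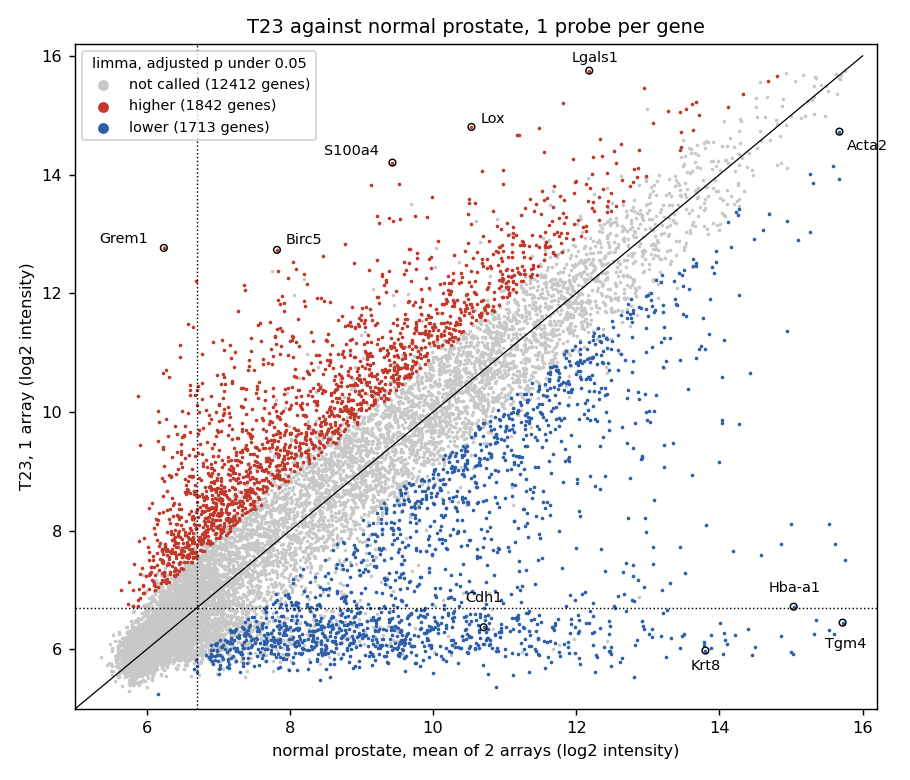
Log2 intensity of 15967 genes in T23 (vertical, 1 array) against the mean of the 2 normal prostate arrays (horizontal), 1 probe per gene, with calls coloured and the background threshold of 6.70 dotted. The 1713 lower genes include a band along the threshold, where 807 of them lie at background in T23, and Grem1 stands highest above the diagonal among genes dim in normal prostate.

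The first check was whether T23 carries an epithelial profile, since TRAMP tumors arise in epithelium. Of its defining markers, Krt8 and Cdh1 lay at background. Keratin 8 and keratin 18 form the filament pair of simple and luminal epithelium. Krt8 lay at 5.98 in T23, which is background, against 13.55 and 14.06 in normal prostate and 14.12 in T1525. Its difference of -7.82 ± 0.29 (SE) amounts to at least 138-fold (limma adjusted p = 0.00292). Krt18 lay at 8.94 in T23 against 13.82 and 13.40, a fall of 25.5-fold that left it above background. Neither gene's T23 value overlapped the normal arrays. Cdh1, which encodes E-cadherin, the adhesion protein of epithelial junctions, lay at 6.37 in T23 against 10.67 and 10.74 in normal prostate and 10.96 in T1525. It fell at least 16.1-fold (adjusted p = 0.00335). The label of a prostate tumor line therefore goes with an array on which Cdh1 and Krt8 lay at background, and the line is called by its name alone.

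The same held across the junction and keratin genes. Of 25 measured genes of epithelial adhesion, 19 were lower and 1 was higher in T23, against 10.7% and 11.5% of all genes, with a median difference of -3.37. In T1525, set against the same normal arrays, 2 of these genes were lower and 3 higher. The claudins seal tight junctions. Cldn4 lay at 6.66 in T23 against 13.30 and 13.25, at least 95.2-fold lower. Cldn3 fell at least 51.5-fold and Cldn7 at least 9.84-fold, and both lay at background in T23. Rab25, a small GTPase of epithelial membrane traffic, lay at 6.61 in T23, 13.27 and 13.16 in normal prostate and 13.66 in T1525, at least 91.3-fold lower in T23. Krt19 fell at least 37.1-fold. Krt7 lay at 7.72 in T23 against 11.93 and 14.21, and its fall of 40.8-fold became 90.2-fold or 18.5-fold when normal 1 or normal 2 was left out. The normal arrays disagreed on Krt7, and T23 lay below both. Tjp1, the scaffold protein ZO-1 that also serves other cell types, was the single gene of the list called higher. It rose from 7.71 and 8.001 to 9.11, or 2.39-fold (adjusted p = 0.0701 under median scaling).

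**Figure D2:**
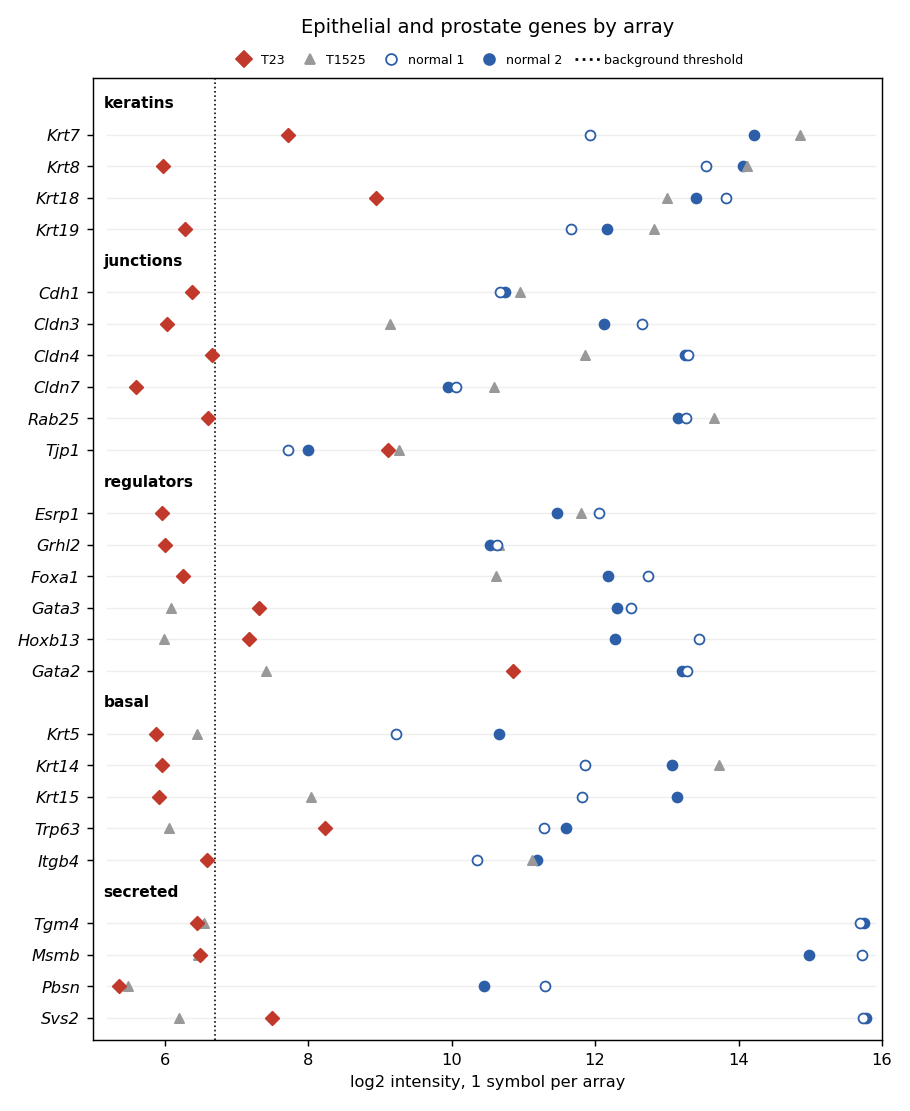
Log2 intensity of keratin, junction, regulator, basal and secreted genes, 1 symbol per array, with the background threshold of 6.70 dotted. T23 sits at or left of the threshold for Krt8, Krt19, Cdh1 and the 3 claudins, while T1525 lies between 9.14 and 14.12 for these genes.

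Transcription and splicing factors that hold the epithelial state fell in part. Of 12 measured epithelial regulators, 6 were lower and 0 higher, against 10.7% and 11.5% of all genes. Their median difference was -1.84. Esrp1, a splicing factor of epithelial isoforms, lay at 5.96 in T23 against 12.05 and 11.47 in normal prostate and 11.81 in T1525. It fell at least 33.3-fold. Grhl2, an activator of junction genes, lay at 6.00 against 10.63 and 10.54, at least 14.8-fold lower, and Grhl1 fell at least 22.1-fold. Ap1m2, an epithelial sorting adaptor, fell at least 15.2-fold and Prom2 at least 46.7-fold. The remaining lower gene was Esrp2, which fell 2.72-fold and stayed above background. Klf5 lay at 11.17 in T23 against 11.06 and 11.65 (adjusted p = 0.748). Klf4, at 9.07 against 7.74 and 8.57, did not pass either.

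Products that prostate lobes secrete were among the largest falls, from normal values near the top of the scale. Among 11 measured prostate secretions, 9 were lower, against 10.7% of all genes, and none was above background in T23. Their median difference was -7.98. Tgm4, the transglutaminase that clots semen in rodents, lay at 6.45 in T23 against 15.69 and 15.75. Its fall of at least 519-fold was the largest bound of any gene (difference -9.27 ± 0.18, adjusted p = 0.00234). Msmb, the microseminoprotein, lay at 6.50 against 15.72 and 14.98, at least 401-fold lower, and the beta-defensin Defb50 fell at least 394-fold. The transcripts 9530002B09Rik and 9530003J23Rik, known by clone names, fell at least 453-fold and at least 315-fold. Pbsn, whose promoter drives the TRAMP transgene, lay at 5.37 in T23, 5.48 in T1525 and 11.31 and 10.45 in normal prostate, at least 18.1-fold lower in T23. Spink1, a trypsin inhibitor, was at least 184-fold lower, and at least 78.8-fold or 429-fold without normal 1 or normal 2. Sbpl lay at 6.24 in T23 against 15.70 and 11.29 and did not pass (adjusted p = 0.0704). Azgp1 fell at least 32.9-fold, with 16.7-fold and 64.6-fold as the bounds without normal 1 and without normal 2. The T23 value lay below both normal arrays in 10 of the 11 genes, against 36.6% of all genes.

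Seminal vesicle secretions fell as well, from bright to dim normal values. Of 7 measured genes 7 were lower, against 10.7% of all genes, with a median difference of -7.57. Svs4 lay at 6.27 in T23 against 15.58 and 15.63, at least 478-fold lower, and Svs3b fell at least 158-fold. Svs2 and Svs5 fell 305-fold and 228-fold but stayed above background in T23, at 7.50 and 7.78, where T1525 lay at 6.20 and 6.56. Svs3a, at 8.30 and 8.83 in normal prostate, and Svs6, at 7.72 and 8.17, fell at least 3.63-fold and at least 2.37-fold. Pate4, at 6.93 and 6.88, lay just above background in normal prostate and at 6.07 in T23, and its call (adjusted p = 0.0491) was lost under 4 alternatives. Other secreted or secretory-cell products among the 20 largest falls were Rnase1, at least 223-fold, Fgl1, at least 207-fold, and Pnliprp1, a lipase relative, at least 165.5-fold. Cbr2, a carbonyl reductase, lay at 6.23 in T23, 14.86 in both normal arrays and 11.59 in T1525. Lcn2, a lipocalin of epithelium and neutrophils that withholds iron from bacteria, lay at 6.10 in T23 against 12.52 and 15.69, at least 169-fold lower, or 508-fold and 56.4-fold without normal 1 and normal 2.

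Regulators of the luminal lineage fell less uniformly. Of 16 measured luminal regulators and androgen targets, 12 were lower and 0 higher, against 10.7% and 11.5% of all genes. Of the 16, 8 stayed above background in T23. Foxa1, the pioneer factor that opens androgen receptor sites, lay at 6.26 in T23 against 12.74 and 12.18 in normal prostate and 10.62 in T1525, at least 54.1-fold lower (adjusted p = 0.00358). Tmprss2, an androgen-induced protease, lay at 6.34 against 12.98 and 12.91, at least 75.8-fold lower. Gata3 fell 33.8-fold, to 7.32. The posterior homeobox factor Hoxb13, a mark of prostate identity, lay at 7.18 in T23 against 13.45 and 12.28, 51.6-fold lower, or 34.3-fold and 77.7-fold without normal 1 and normal 2. Gata2, a partner of the androgen receptor, lay at 10.85 against 13.29 and 13.21, a fall of 5.27-fold, where T1525 lay at 7.42. Psca, a surface antigen, fell 72.6-fold, with 172-fold and 30.7-fold without normal 1 and normal 2. Slc45a3 fell at least 23.1-fold, and at least 15.4-fold or 34.7-fold without normal 1 or normal 2.

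Basal cells of the prostate carry keratins 5 and 14, p63 and the hemidesmosome. Of 13 measured basal genes, 10 were lower in T23 and 0 higher, against 10.7% and 11.5% of all genes. Their median difference was -2.81. Krt14 lay at 5.96 in T23 against 11.86 and 13.08 in normal prostate and 13.72 in T1525, at least 54.5-fold lower, or 83.1-fold and 35.7-fold without normal 1 and normal 2. Krt15 fell at least 55.1-fold, with 87.0-fold and 34.9-fold as the bounds without normal 1 and normal 2. Krt5 fell at least 9.47-fold, and at least 15.6-fold or 5.76-fold without normal 1 or normal 2. Trp63, the p63 gene that defines basal cells, lay at 8.24 in T23, above background, against 11.29 and 11.59 and against 6.06 in T1525. It fell 9.22-fold (adjusted p = 0.00527). Itgb4, the integrin of hemidesmosomes, fell at least 16.8-fold and Lamb3, a chain of their laminin ligand, at least 13.6-fold. T23 lay at background for all 4 basal keratins of the list and above it for Trp63, Itga6, Dst, Col17a1 and Sfn.

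Mesenchymal genes went the other way. Epithelial to mesenchymal transition is a change of cell state in which junction genes fall and genes of motile, matrix-making cells rise, set by a small group of transcription factors. Of 9 such factors measured, 4 were higher and 0 lower, against 11.5% and 10.7% of all genes. All 9 were above background in T23. Twist1 lay at 11.37 in T23 against 7.77 and 8.02 in normal prostate and 7.57 in T1525, 11.1-fold higher (difference 3.47 ± 0.21, adjusted p = 0.00435). Twist2 lay at 11.50 against 9.02 and 9.05 in normal prostate, 5.53-fold higher, and at background, 5.85, in T1525. Prrx1, a homeobox factor of limb mesenchyme, rose 9.65-fold and Foxc2 at least 7.45-fold. The zinc finger repressors of E-cadherin did not pass. Zeb1 lay at 10.73 against 10.24 and 10.61 (adjusted p = 0.465) and Zeb2 at 9.20 against 9.21 and 11.09 (adjusted p = 0.503), while T1525 held both at background. Snai2 lay at 10.11 against 8.23 and 8.91, just outside the threshold (adjusted p = 0.0502).

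Of 14 mesenchymal genes measured, 8 were higher and 1 was lower, against 11.5% and 10.7% of all genes. Their median difference was 1.98, against 0.06 over all genes. S100a4, the calcium-binding protein also called fibroblast-specific protein, lay at 14.20 in T23 against 9.29 and 9.58 in normal prostate and 10.15 in T1525, 27.3-fold higher (adjusted p = 0.00342). Lgals1, galectin-1, lay at 15.75 against 11.87 and 12.49, 11.9-fold higher, and at 8.10 in T1525. The highest value on any array was 15.79, so Lgals1 lay near the top of the scale in T23. Tnc, tenascin-C, rose 9.02-fold, or 5.55-fold and 14.7-fold without normal 1 and normal 2. Fn1, fibronectin, lay at 12.75 against 8.95 and 10.40, 8.43-fold higher, or 5.09-fold and 13.96-fold without normal 1 and normal 2. Axl, a receptor tyrosine kinase, lay at 14.39 in T23, 12.23 and 12.84 in normal prostate and 6.72 in T1525, 3.63-fold higher in T23. Vim, vimentin, lay at 15.11 against 12.38 and 13.59 and did not pass (adjusted p = 0.0690). T23 exceeded both normal arrays for Vim, and T1525 lay between them at 13.43. Cdh2, the N-cadherin gene, rose at least 1.93-fold to 7.65 but did not pass as the mean of its probes (adjusted p = 0.0541). Thy1, a fibroblast surface protein, fell 3.27-fold, to 9.87. Under median scaling Tnc, Fn1 and Axl did not pass (adjusted p = 0.0709, 0.0805 and 0.0613).

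**Figure D3:**
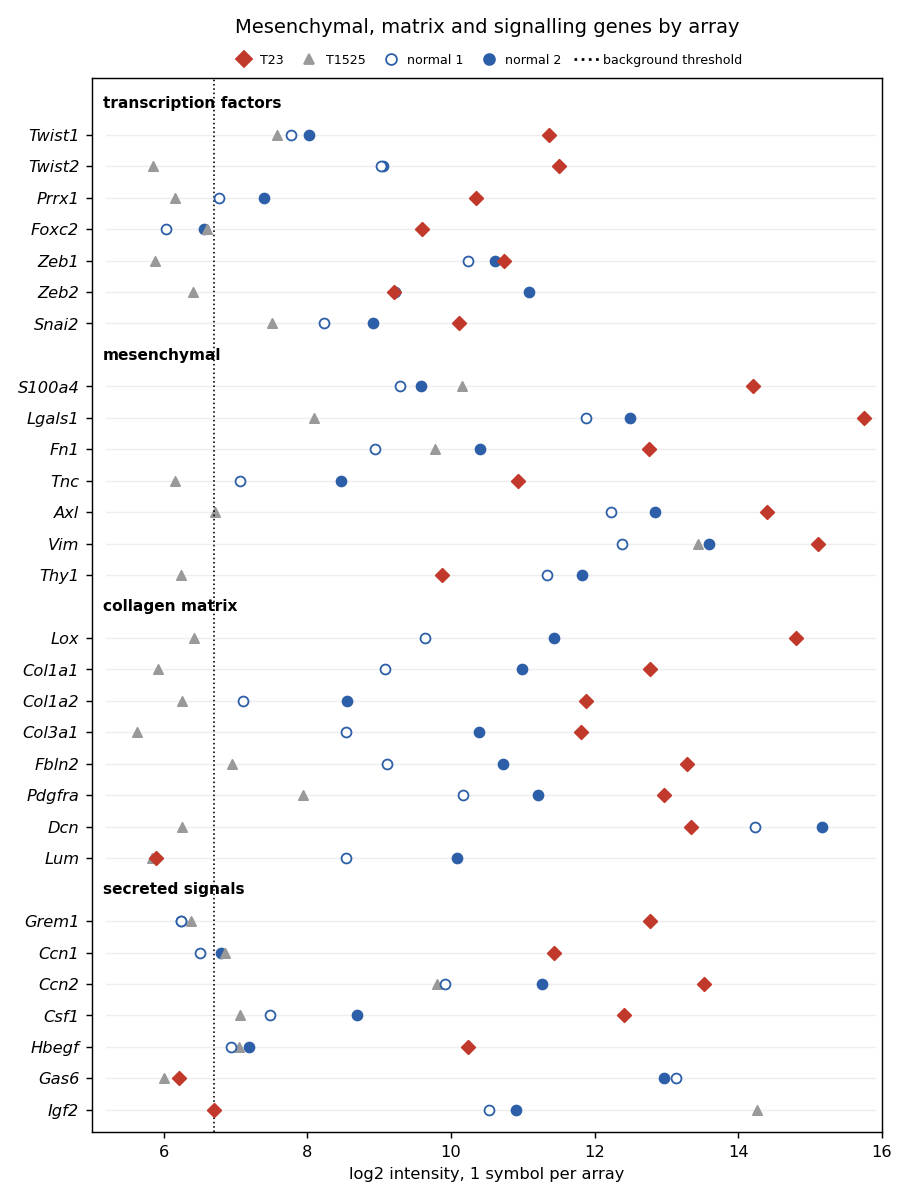
Log2 intensity of mesenchymal transcription factors, mesenchymal genes, matrix genes and secreted signals, 1 symbol per array, with the background threshold of 6.70 dotted. T23 lies to the right of both normal arrays for Twist1, S100a4, Lox and Grem1 and to the left for Lum and Gas6, and T1525 lies at or near the threshold for most matrix genes.

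Interstitial collagen genes lay above both normal arrays in T23, and the normal arrays differed from each other. Of 23 measured genes of collagen matrix, 6 were higher and 2 lower, against 11.5% and 10.7% of all genes. Their median difference was 1.28. Without a test, 12 lay at least 2-fold above both normal arrays and 4 at least 2-fold below both. Over all genes these shares were 9.28% and 9.49%. In T1525, 1 of the 23 was higher and 13 were lower. Lox, lysyl oxidase, the enzyme that cross-links collagen and elastin, lay at 14.80 in T23 against 9.64 and 11.43 in normal prostate and at background, 6.42, in T1525. It rose 19.2-fold (adjusted p = 0.0322), or 10.4-fold without normal 1 and 35.8-fold without normal 2. Col1a2, a chain of type I collagen, lay at 11.88 against 7.11 and 8.56, 16.6-fold higher, or 10.02-fold and 27.4-fold without normal 1 and normal 2. Its partner chain Col1a1 lay at 12.77 against 9.08 and 10.99 and did not pass (adjusted p = 0.102), nor did Col3a1 at 11.80 against 8.53 and 10.39 (adjusted p = 0.133), although its dimmer probe passed (adjusted p = 0.0246). All 3 collagen chains lay above both normal arrays in T23 and at background in T1525. Fbln2, a fibulin of elastic fibres, rose 10.3-fold, with 5.89-fold and 18.1-fold without normal 1 and normal 2. Pdgfra, the PDGF receptor of fibroblasts, lay at 12.97 against 10.17 and 11.22, 4.85-fold higher. Lum and Dcn encode small proteoglycans of collagen fibrils. Lum lay at background in T23, 5.89, against 8.54 and 10.08, at least 6.11-fold lower, or 10.4-fold and 3.57-fold without normal 1 and normal 2. Dcn lay at 13.34 against 14.23 and 15.16 (adjusted p = 0.116). Timp1, an inhibitor of matrix proteases, lay at 13.50 against 8.06 and 11.31 and did not pass (adjusted p = 0.148). Under median scaling Lox, Fbln2, Pdgfra and Lum did not pass (adjusted p = 0.05835, 0.0801, 0.0880 and 0.0542), and Col1a2 did.

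Among 17 measured proteases and inhibitors 4 were higher and 1 lower, and among 9 integrins 2 were higher and 1 lower. Over all genes 11.5% were higher and 10.7% lower. Plaur, the urokinase receptor, rose at least 10.2-fold to 10.46, while Plau, urokinase itself, lay at 10.30 against 13.22 and 12.71 and fell 6.35-fold. Mmp14, a membrane-bound collagenase, lay at 13.84 against 10.38 and 11.56, 7.29-fold higher, or 4.84-fold and 10.98-fold without normal 1 and normal 2. Mmp11 rose 2.85-fold and Adamts1 at least 1.85-fold. Under median scaling Mmp14 and Adamts1 did not pass (adjusted p = 0.0655 and 0.0839). The integrin chains that rose were Itgav, 3.155-fold, and Itgb5, 3.14-fold, which pair as a vitronectin receptor. Itga11, a collagen receptor chain outside that list, was among the 20 largest rises at 12.13 against 6.96 and 7.74, or 27.4-fold, and lay at background in T1525.

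The largest rise of any gene was that of Grem1, which encodes gremlin 1, a secreted antagonist of bone morphogenetic proteins. Grem1 lay at 12.76 in T23 against 6.23 and 6.24 in normal prostate and 6.38 in T1525. The line T23 stood alone above background, by at least 66.9-fold against normal prostate (difference 6.52 ± 0.18, adjusted p = 0.00256). Tprg rose at least 39.6-fold, to 12.21 from 6.26 and 7.10. Ptx3, a soluble pattern recognition protein, rose at least 24.6-fold, and Thbs1, thrombospondin 1, rose at least 18.3-fold, to 10.93 from 6.15 and 6.77. Msln, mesothelin, lay at 11.70 against 7.14 and 7.42, 21.4-fold higher. Zfpm2, a cofactor of GATA factors, rose at least 17.9-fold. Pcdh19, a protocadherin, rose at least 21.2-fold and was also higher in T1525, at 9.17. Of the 20 largest rises, the remainder were Birc5, Cenpa, Cdk1, Plk1 and Aurkb of cell division, the histone H2ac12, the nuclear pore gene Ndc1, and S100a4, Ccn1, Ankrd1, Itga11, Csf1 and Lox.

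Ccn1 and Ankrd1 are widely used target genes of the coactivator YAP, which acts through TEAD factors at the letters GGAATG. Ccn1 lay at 11.44 in T23 against 6.50 and 6.79 in normal prostate and 6.85 in T1525, at least 25.8-fold higher. Ankrd1, a muscle-type ankyrin repeat protein, lay at 12.06 against 6.9995 and 7.75, 25.7-fold higher, and at background in T1525. Ccn2, from the same gene family as Ccn1, lay at 13.52 against 9.91 and 11.27, 7.61-fold higher, or 4.74-fold and 12.2-fold without normal 1 and normal 2 (adjusted p = 0.0799 under median scaling). The RefSeq promoters of Ccn1 and Ankrd1 in build GRCm38.p6, 250 bases up to the first listed start, are shown because both hold that motif, in capitals on either strand.
Ccn1 (chr3:145649986-145650235, minus strand): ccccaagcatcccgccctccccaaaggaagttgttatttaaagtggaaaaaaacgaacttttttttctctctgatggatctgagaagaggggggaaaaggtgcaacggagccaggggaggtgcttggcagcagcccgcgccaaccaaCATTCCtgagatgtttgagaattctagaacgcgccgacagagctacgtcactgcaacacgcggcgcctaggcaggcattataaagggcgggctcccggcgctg
Ankrd1 (chr19:36119845-36120094, minus strand): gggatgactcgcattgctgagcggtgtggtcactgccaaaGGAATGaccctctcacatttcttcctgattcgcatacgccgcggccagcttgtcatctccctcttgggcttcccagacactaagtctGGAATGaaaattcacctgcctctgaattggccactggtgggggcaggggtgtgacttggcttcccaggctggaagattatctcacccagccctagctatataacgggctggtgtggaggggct
The matches begin at -103 in Ccn1 and at -210 and -123 in Ankrd1. The same letters stood in 11.1% of 12847 promoters of measured genes and in 11.1% of those of genes called higher in T23, so the share among the higher genes was that of all genes.

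Signals that cells send and receive were mixed. Of 32 growth factor genes measured, 10 were higher and 7 lower, and of 20 receptors 5 were higher and 3 lower, and both shares exceed those over all genes in each direction. Csf1, the macrophage growth factor, lay at 12.40 in T23 against 7.48 and 8.68 in normal prostate and 7.06 in T1525, 19.97-fold higher, or 13.2-fold and 30.3-fold without normal 1 and normal 2. Hbegf, a ligand of the EGF receptor, lay at 10.23 against 6.94 and 7.18, 8.996-fold higher. Egfr itself rose 3.45-fold, to 11.05 from 8.96 and 9.55, and lay at 7.33 in T1525 (adjusted p = 0.0648 under median scaling). Egf, a ligand of the same receptor, lay at 7.05 against 13.43 and 12.46, 59.5-fold lower. Lif and Hgf rose at least 5.08-fold and at least 4.59-fold, and Met, the receptor of Hgf, rose at least 3.07-fold. Fgf1 fell at least 17.5-fold and Fgf10, a stromal factor that guides prostate budding, fell 4.12-fold. As the mean of all its probes, Fgf10 had a smaller difference of -1.12 (adjusted p = 0.0567). Gas6, the ligand of Axl, lay at 6.21 in T23 against 13.14 and 12.96 in normal prostate and 6.01 in T1525, at least 81.6-fold lower, so T23 was high for the receptor and at background for this ligand. Igf2 lay at 6.69 in T23, just under the threshold, against 10.53 and 10.91 in normal prostate and 14.26 in T1525. Grb7, an adaptor of ErbB receptors, lay at 5.85 against 12.82 and 12.45, at least 61.2-fold lower, with T1525 at 13.05.

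Transcripts that the ERK kinases induce were higher in part. Of 11 measured outputs, 5 were higher and 0 lower, with a median difference of 1.05, and in T1525 0 were higher and 2 lower. Etv4, an ETS factor, lay at 9.97 in T23 against 7.48 and 7.29, 6.015-fold higher, and lay at background in T1525. Fosl1, an AP-1 subunit, rose at least 4.58-fold, Etv5 2.34-fold, and the feedback inhibitors Spred1 and Spry4 at least 2.19-fold and 2.06-fold. Of 17 immediate early genes 3 were higher and 1 lower, against 11.5% and 10.7% of all genes. Egr1 lay at 14.05 against 10.19 and 11.19, 10.3-fold higher, Jun rose 5.76-fold and Dusp1 3.72-fold, while Jund fell 2.43-fold. Myc lay at 8.47 against 7.36 and 6.72 and did not pass (adjusted p = 0.0529). Under median scaling Spred1, Spry4 and Dusp1 did not pass (adjusted p = 0.0613, 0.0775 and 0.0586).

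Wnt genes were called in both directions, 3 of 15 higher and 5 lower, against 11.5% and 10.7% of all genes. Wnt10a lay at 10.71 in T23 against 7.48 and 7.37, 9.77-fold higher, and Wnt5a, a ligand of the non-canonical branch, lay at 11.14 against 8.55 and 9.02, 5.12-fold higher. Dkk3, a Dickkopf family member, lay at 13.52 in T23, 10.15 and 10.86 in normal prostate and 6.19 in T1525, 8.08-fold higher in T23. Wif1, a secreted Wnt inhibitor, fell at least 24.9-fold. Axin2 and Lgr5, common readouts of beta-catenin activity, fell 4.44-fold and at least 2.58-fold. Of 14 chemokine genes 3 were higher and 2 lower, against the same shares, with a median difference of -0.18. Ccl2 lay at 9.76 in T23 against 6.01 and 6.79 and at background in T1525, at least 8.09-fold higher. Cxcl14, an epithelial chemokine, fell at least 16.1-fold. Cxcl1 lay at 12.25 against 6.68 and 9.71 and did not pass (adjusted p = 0.114).

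Most of the measured cell division genes rose, where 11.5% of all genes were called higher and 10.7% lower. Of 17 mitosis genes measured, 14 were higher and 0 lower, with a median difference of 3.54, and T1525 gave the same counts. The other 3, Bub1, Ccnb2 and Kif11, lay at background on every array. Birc5, survivin, a member of the chromosomal passenger complex, lay at 12.73 in T23 against 7.95 and 7.69 in normal prostate and 12.67 in T1525, 30.1-fold higher (difference 4.91 ± 0.21, adjusted p = 0.00340). Cenpa, the centromeric histone, lay at 13.83 against 9.27 and 8.99, 25.96-fold higher. Cdk1, the mitotic kinase, lay at 12.38 against 7.96 and 7.72, 23.25-fold higher. For these 3 genes neither line overlapped the normal arrays. Plk1 rose 22.2-fold, Aurkb 19.05-fold and Top2a, topoisomerase II alpha, 17.85-fold. Of 19 DNA replication genes 17 were higher and 0 lower, with a median difference of 2.88. Tk1, thymidine kinase, lay at 11.96 against 7.90 and 7.87, 16.9-fold higher. Mcm5, a subunit of the replicative helicase, rose 13.8-fold, Uhrf1 12.4-fold and Cdt1, a licensing factor, 11.9-fold. Of 14 repair genes 10 were higher and 0 lower, among them Rad54l, 10.1-fold, and Blm, 6.28-fold.

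**Figure D4:**
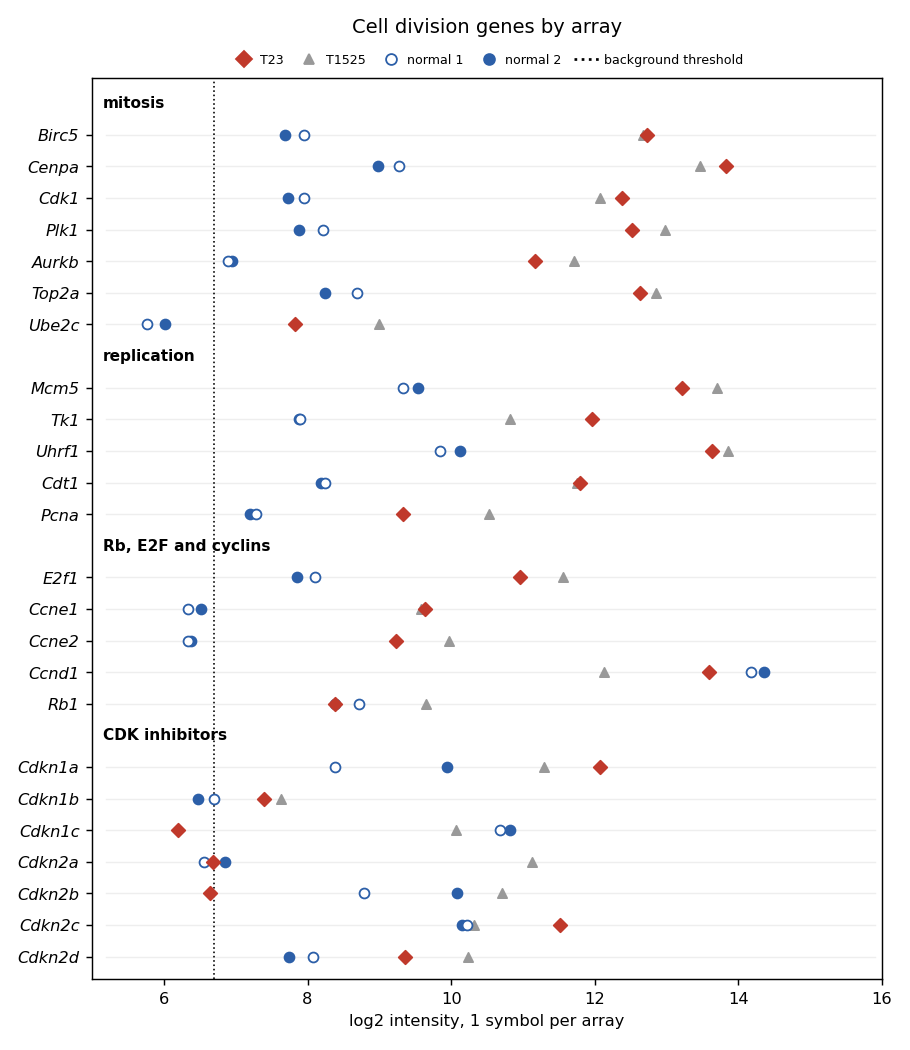
Log2 intensity of genes of mitosis, replication, the Rb and E2F group and CDK inhibitors, 1 symbol per array, with the background threshold of 6.70 dotted. T23 lies near T1525 and right of both normal arrays for mitosis and replication genes, and left of T1525, at or below the threshold, for Cdkn1c, Cdkn2a and Cdkn2b.

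Promoters of these genes are shown because E2F factors and the CHR element, through which the DREAM complex acts, are known to time their expression. In the 250 bases before the start, on either strand, a CHR (TTTGAA or TTTAAA) stood in 22.4% of 12847 promoters of measured genes, in 21.4% of those of genes called higher in T23, and in 9 of 13 mitosis promoters (69.2%). An E2F letter string (TTTGGCGC, TTTCCCGC, TTCCCGCC or TTTGGCGG, of which TTTCCCGC and TTCCCGCC can overlap) stood in 4.41% of all, in 7.12% of those of the higher genes, and in 8 of 17 replication promoters (47.1%). The letters CCAAT stood in 36.0% of all promoters, in 11 of 13 mitosis promoters (84.6%) and in 12 of 17 replication promoters (70.6%). A match is not a bound site, and these shares carry no test. The sequences come from RefSeq, build GRCm38.p6, with CHR letters in capitals for Cdk1, Plk1 and Cenpa and E2F letters in capitals for Mcm5, Mcm6 and Rrm1.
Cdk1 (chr10:69352913-69353162, minus strand): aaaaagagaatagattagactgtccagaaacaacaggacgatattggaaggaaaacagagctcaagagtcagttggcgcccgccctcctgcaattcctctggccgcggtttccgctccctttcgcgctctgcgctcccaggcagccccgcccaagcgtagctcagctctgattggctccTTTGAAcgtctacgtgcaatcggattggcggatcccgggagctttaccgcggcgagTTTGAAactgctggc
Plk1 (chr7:122159185-122159434, plus strand): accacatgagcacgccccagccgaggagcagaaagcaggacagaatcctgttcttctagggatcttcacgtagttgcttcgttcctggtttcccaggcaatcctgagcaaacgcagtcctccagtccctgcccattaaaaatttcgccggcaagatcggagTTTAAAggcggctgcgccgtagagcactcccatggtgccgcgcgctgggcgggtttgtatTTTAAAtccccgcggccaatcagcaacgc
Cenpa (chr5:30666636-30666885, plus strand): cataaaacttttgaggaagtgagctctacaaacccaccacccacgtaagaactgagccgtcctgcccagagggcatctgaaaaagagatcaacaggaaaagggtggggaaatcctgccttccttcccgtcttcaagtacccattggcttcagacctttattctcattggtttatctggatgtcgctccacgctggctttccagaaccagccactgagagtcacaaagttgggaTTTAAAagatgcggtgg
Mcm5 (chr8:75109259-75109508, plus strand): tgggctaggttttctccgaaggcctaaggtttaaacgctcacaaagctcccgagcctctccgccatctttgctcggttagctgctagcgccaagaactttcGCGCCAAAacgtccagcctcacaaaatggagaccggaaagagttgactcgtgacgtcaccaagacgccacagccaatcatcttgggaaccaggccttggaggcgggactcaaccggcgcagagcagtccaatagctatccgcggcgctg
Mcm6 (chr1:128359706-128359955, minus strand): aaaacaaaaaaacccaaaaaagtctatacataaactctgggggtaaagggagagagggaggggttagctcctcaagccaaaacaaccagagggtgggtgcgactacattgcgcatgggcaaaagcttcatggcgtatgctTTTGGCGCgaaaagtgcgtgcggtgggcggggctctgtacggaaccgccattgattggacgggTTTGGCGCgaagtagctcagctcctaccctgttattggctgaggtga
Rrm1 (chr7:102441445-102441694, plus strand): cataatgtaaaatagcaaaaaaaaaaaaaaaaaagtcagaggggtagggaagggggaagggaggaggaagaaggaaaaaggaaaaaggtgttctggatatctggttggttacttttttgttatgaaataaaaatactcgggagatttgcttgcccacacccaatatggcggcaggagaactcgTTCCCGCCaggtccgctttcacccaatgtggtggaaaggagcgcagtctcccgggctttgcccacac
Mcm6, which carries the E2F letters at -110 and -47, lay at 12.52 in T23 against 9.57 and 9.76 in normal prostate, 7.21-fold higher, and Rrm1, with a single match at -67, rose 6.63-fold.

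The regulators above these genes were divided. Of 18 genes of the Rb, E2F and G1 cyclin group, 8 were higher and 0 lower, against 11.5% and 10.7% of all genes. Ccne1, cyclin E1, lay at 9.63 against 6.33 and 6.52, at least 7.62-fold higher, Ccne2 rose at least 5.79-fold and E2f1 rose 7.89-fold, to 10.95. Rb1 lay at 8.38 in T23, level with normal 2 at 8.38 and below normal 1 at 8.72 (adjusted p = 0.691). Ccnd1 lay at 13.59 against 14.18 and 14.36 (adjusted p = 0.0914). The CDK inhibitors, which brake the cycle, did not move together: 2 of 7 were higher and 2 lower, against the same shares. Cdkn1c, p57, lay at 6.20 in T23 against 10.68 and 10.82 in normal prostate and 10.07 in T1525, at least 16.6-fold lower (adjusted p = 0.00329). Cdkn2b, p15, lay at 6.64 against 8.79 and 10.08, at least 6.66-fold lower, or 10.4-fold and 4.26-fold without normal 1 and normal 2 (adjusted p = 0.0573 under median scaling). Cdkn2a, which encodes p16 and p19Arf and often accumulates when Rb is inactive, lay at 6.68 in T23, at background, and at 6.56 and 6.86 in normal prostate, against 11.13 in T1525. For Cdkn2b, the neighbour of Cdkn2a, T1525 lay at 10.71, above both normal arrays. Cdkn2c and Cdkn2d rose 2.51-fold and 2.715-fold. Cdkn1a, p21, lay at 12.08 against 8.38 and 9.94 and did not pass on its brighter probe (adjusted p = 0.0568), while its other probe passed, higher by 2.76 (adjusted p = 0.0211), and so did the mean of both (adjusted p = 0.0489). Of 14 p53 targets, a list that also holds Cdkn1a, 5 were called higher and 1 lower, against the same shares. The largest rise among the called targets was that of Ccng1, 4.32-fold. Mdm2 lay at 11.92 against 11.59 and 11.56 (adjusted p = 0.289). Of 13 apoptosis regulators 1 was higher, Bid, 2.16-fold, and 1 lower, Bcl2, 2.36-fold, against 11.5% and 10.7% of all genes. Bid did not pass under median scaling (adjusted p = 0.0513), and the mean of the Bcl2 probes differed by -0.26 (adjusted p = 0.416).

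Markers of other prostate tumor types, progenitors and embryonic tissue were called in both directions, against 11.5% higher and 10.7% lower over all genes. The median difference was -0.08 for neuroendocrine genes, -0.80 for progenitor markers and 0.10 for oncofetal and imprinted genes. It was 0.55 for Polycomb and DNA methylation and 0.43 for posterior Hox genes. Neuroendocrine tumors of TRAMP mice are known for Foxa2 and synaptophysin. Foxa2 lay at background in T23, 6.44, and in normal prostate, against 10.15 in T1525. Sox2 lay at 6.94 against 6.48 and 6.65, with 10.41 in T1525, and Chga and Mycn lay at background in T23. Of 14 neuroendocrine genes 1 was higher, Eno2, 3.11-fold, and 4 were lower, Stmn2, Syp, Scg2 and Uchl1. Syp, synaptophysin, lay at 6.31 against 9.45 and 9.66. Of 10 progenitor markers 4 were lower and 2 higher. Prom1, the CD133 surface protein of luminal cells, lay at 5.93 in T23, 13.93 and 14.17 in normal prostate and 12.78 in T1525, at least 163-fold lower. Aldh1a1 fell 35.8-fold, while Sox9 lay at 12.56 against 12.73 and 12.70 (adjusted p = 0.635). Bmi1, a Polycomb protein, rose 4.63-fold. Of 11 oncofetal and imprinted genes 3 were higher and 1 lower. Igf2 and Cdkn1c, also imprinted and both lower in T23, are counted in other lists. Igf2bp1, an RNA-binding protein of embryonic tissue, lay at 9.84 against 6.10 and 6.24, at least 8.78-fold higher, and Igf2bp3 and the chromatin protein Hmga2 rose at least 2.45-fold and at least 2.10-fold. The mean of the Hmga2 probes did not pass (adjusted p = 0.1545). Among 13 genes of Polycomb and DNA methylation 6 were higher and 1 lower. Dnmt1 and Ezh2, which copy DNA methylation and methylate histone H3, rose 5.75-fold and 5.335-fold, and Cbx7 fell 9.85-fold. Among 11 posterior Hox genes 2 were higher and 3 lower. Hoxb13, lower in T23, is counted with the luminal regulators instead. Hoxd10 fell at least 6.62-fold and Hoxc9 rose 3.565-fold.

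Metabolic lists differed from one another, and over all genes 11.5% were higher and 10.7% lower. Of 16 genes of glycolysis and hypoxia 1 was higher, Tpi1, 2.16-fold, where T1525 had 11 higher against the same arrays. Their median difference was 0.37 in T23 and 1.07 in T1525. Of 18 genes of sterol and fatty acid synthesis 3 were higher, Cyp51, Insig1 and Sqle (Sqle not under median scaling, adjusted p = 0.0887, and Insig1 not as the mean of its probes, adjusted p = 0.0569), and of 14 of oxidative phosphorylation 1 was higher and 1 lower. Serine and amino acid supply gave 6 of 15 higher and 1 lower. Mthfd1l, an enzyme of the mitochondrial folate cycle, lay at 11.46 against 9.07 and 8.86, 5.61-fold higher, and Psat1, of serine synthesis, rose 4.03-fold. The secretory machinery gave 0 of 13 higher and 5 lower, with Sdf2l1, 3.69-fold, and Pdia4, a disulfide isomerase, 3.44-fold lower. Sdf2l1 did not pass as the mean of its probes (adjusted p = 0.0553). Of 22 glutathione and antioxidant genes 7 were lower and 3 higher. Gpx3, the secreted glutathione peroxidase, lay at 6.28 against 14.16 and 13.98, at least 165.0-fold lower, and Gsta3 fell at least 48.3-fold. Nqo1, a quinone reductase, rose 5.22-fold, and Txnrd1 and Srxn1 rose 2.92-fold and 2.76-fold. The prostate accumulates zinc. Slc30a2, a zinc exporter, fell at least 40.5-fold, and the metallothioneins Mt2 and Mt1 fell 9.65-fold and 3.35-fold. Of 8 zinc genes 4 were lower and 1 higher, and of 7 polyamine genes Smox alone was called, 4.10-fold lower on its brightest probe. The other 3 Smox probes were not called, and the mean of its probes differed by -0.96 (adjusted p = 0.0528).

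Immune response genes were called in both directions, against 11.5% higher and 10.7% lower over all genes. The median difference was -0.04 for interferon-stimulated genes and -0.24 for MHC class I presentation. Of 10 interferon-stimulated genes 3 were higher, Ifit3, 4.01-fold, Ifit2, 3.01-fold, and Bst2, 2.22-fold, and 0 lower. Bst2 did not pass under median scaling (adjusted p = 0.0951). Of 13 genes of MHC class I presentation 2 were lower. B2m, the class I light chain, lay at 14.15 in T23 against 15.62 and 15.55 in normal prostate and 10.74 in T1525, 2.705-fold lower, and H2-K1 fell 3.21-fold. As means of all their probes both differed less, by -0.76 and -1.02, and did not pass (adjusted p = 0.0622 and 0.0923), and under median scaling H2-K1 did not pass (adjusted p = 0.0563).

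Markers of muscle, vessels, blood, fat and immune cells were lower in T23 or were not called, where 10.7% of all genes were lower. Smooth muscle markers were lower in 10 of 10 genes, and 5 of them lay at background. Their summed intensity was 29818 in T23 against 170689 and 160517 in the normal arrays. Myh11, the smooth muscle myosin, lay at 5.91 in T23 against 14.48 and 14.44, at least 217-fold lower, and Actg2 fell 172-fold. Acta2, smooth muscle actin, which myofibroblasts also make, kept 14.72 against 15.74 and 15.61, 1.935-fold lower, with T1525 at 6.40. Skeletal muscle markers were lower in 7 of 7 genes, all at background in T23, with a summed intensity of 520 against 53460 and 62558. Acta1, skeletal actin, fell at least 321-fold. Endothelial markers were lower in 8 of 12, with a summed intensity of 2274 against 10475 and 24095, blood markers in 2 of 2 with Hba-a1 319-fold lower, adipose markers in 2 of 6, and mast cell markers in 4 of 7. Leukocyte markers were lower in 7 of 13, with 1 above background in T23, and their summed intensity was 880 in T23, 25762 in normal 1 and 80300 in normal 2. Cd52 lay at 5.87 against 13.36 and 13.15, at least 93.8-fold lower, and Cd74, the class II invariant chain, fell at least 70.6-fold, or 147-fold and 33.9-fold without normal 1 and normal 2. Normal 2 exceeded normal 1 in 11 of the 13 leukocyte genes, with a median log2 gap of 2.10, and in 8 of 8 fibroblast markers, with a median gap of 1.504. The wide SEs of the collagen genes come with this gap between the normal arrays. The part of other cell types in each fall was not tested.

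Fibroblast markers gave calls in both directions, against 11.5% higher and 10.7% lower over all genes. Of 8 measured, 1 was higher, Pdgfra, and 3 were lower, Lum, Thy1 and Serping1, and 5 lay above background in T23, with a summed intensity of 30104 against 27891 and 57419. Serping1, the C1 inhibitor, lay at 5.98 against 11.73 and 13.19, at least 54.0-fold lower, or 89.6-fold and 32.5-fold without normal 1 and normal 2. Col1a1, Col3a1, Pdgfra, Dcn and Thy1 lay above background in T23, and Lum, Fbln1 and Serping1 lay at background. In T1525, 7 of the 8 were lower. The T23 calls of Pdgfra and Lum were lost under median scaling, as given above. Among 5 Schwann and neural markers Gap43 rose 6.215-fold, to 11.63 from 8.95 and 9.03, and Mbp and Sox10 fell to background.

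**Figure D5:**
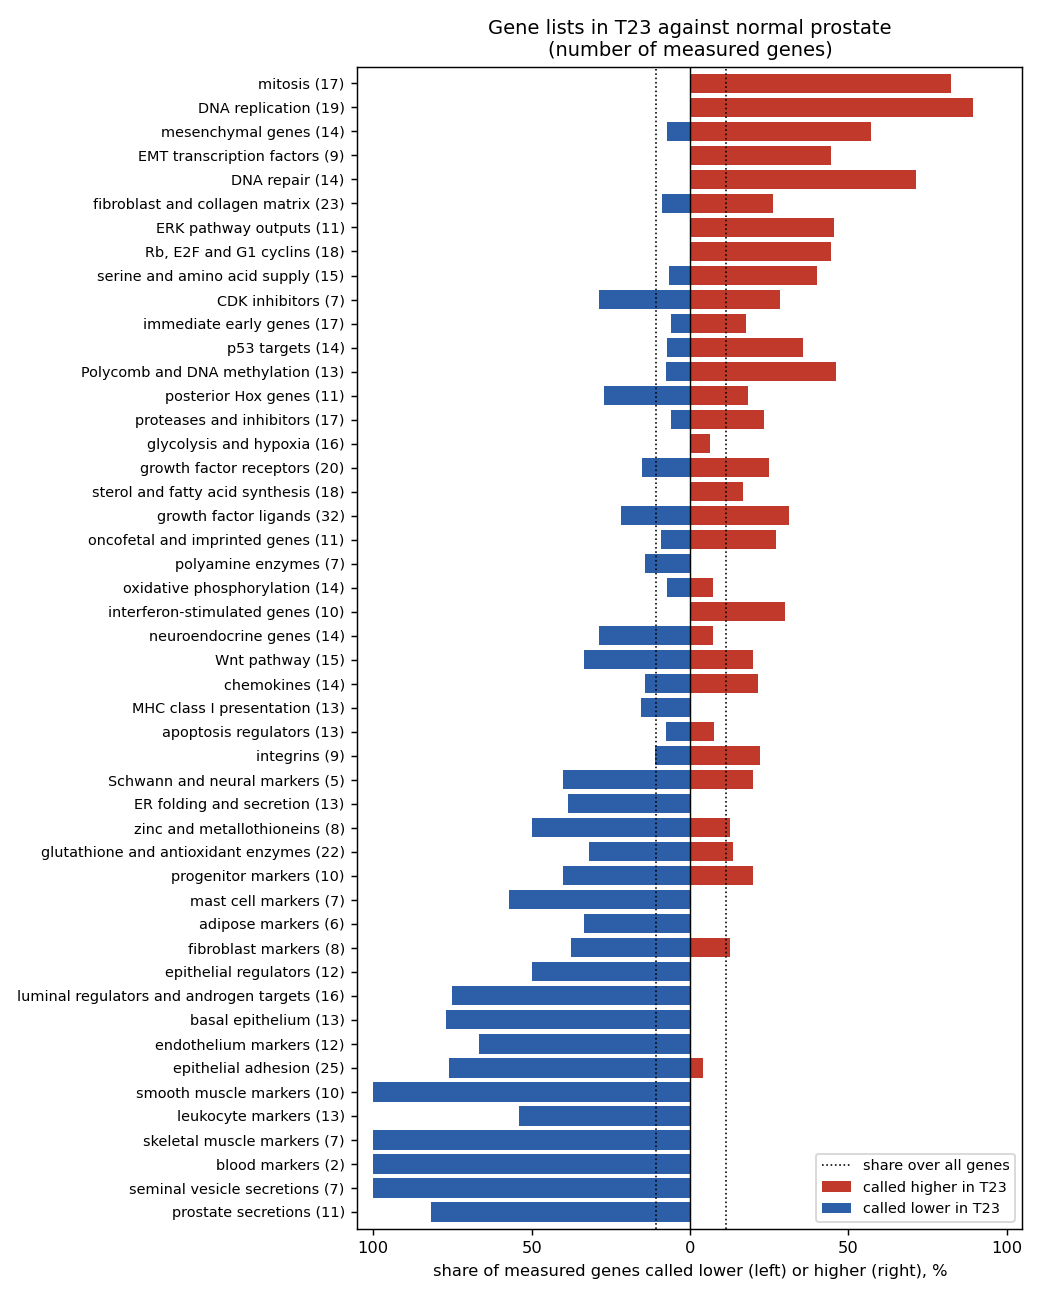
Share of the measured genes of each list that limma called lower (left) or higher (right) in T23 against normal prostate, ordered by median difference, with the shares over all genes (10.7% and 11.5%) dotted and the number of measured genes in brackets. Cell division and mesenchymal lists stand at the top, and secretion, muscle, leukocyte and epithelial lists at the bottom.

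T23 and T1525 came from the same model and were set against the same normal arrays, so their differences from it share that error and agreement between them is not counted here. Against 1842 higher and 1713 lower genes in T23, T1525 had 2003 higher (12.5%) and 1694 lower (10.6%). In 167 genes the calls of the 2 lines had opposite signs, 100 of them higher in T23 and 67 lower. The genes named above that were higher in T23 and lower in T1525 were Lox, Axl, Lgals1, Dkk3, Twist2, Gap43, Pdgfra, Egfr, Eno2 and Ifit2. Those lower in T23 and higher in T1525 were Igf2 and Lamb3. The difference between the lines has 1 array on each side and was not tested. Under median scaling the T23 calls of Lox, Axl, Pdgfra and Egfr were lost, as given above.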

How the data were processed

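Total RNA was labelled as biotinylated cRNA and hybridised to Illumina mouse bead arrays, per the labels' protocols. The authors deposited normalized linear intensities of 24613 probes, made with BeadStudio per the submitters' processing notes. Their normalization is not given in the sources used here, and the sorted intensities of the arrays differed by a median of 0.183% and by at most 3.70%, so differences in overall RNA output between arrays cannot be seen. A table of non-normalized values with 8 per-sample columns was not used, since its columns could not be tied to samples.

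The log2 of the deposited intensity was fitted with limma 3.58.1 in R 4.3.3, with T23, T1525 and normal prostate as 3 groups and no further background correction, two-sided, Benjamini-Hochberg adjusted over all probes. The spread came from the 2 normal arrays with 1 residual degree of freedom and a prior of 3.14, and T23 was assumed to vary like them. The number of arrays limits the precision. Of the probes, 4931 passed (2810 higher, 2121 lower). A symbol was taken from the platform annotation for 20984 probes, of which 20968 matched RefSeq by gene identifier, while 3628 probes had none and 1 had several. A gene was read from the probe with the highest mean over the 4 arrays. In 3728 genes with several probes, 4 had probes with opposite calls, and in 1051 some probes were called and others not. Among the genes named here, 64 had several probes, 29 had called and uncalled ones and 0 had opposite ones. The background threshold of 6.70 lies above the dim peak at 6.12, at a one-sided tail of 0.01, and was set after the values were seen. Saturation is not recorded in the files.

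The 48 gene lists hold 696 genes, of which 623 were measured. Members and lists were chosen with earlier results of these data known. Genes were named by a rule: the 20 largest rises and the 20 largest falls, up to 6 members of each list by the size of their difference, and a fixed set of 18 genes, of which 12 are analysed here. A further 44 of the 223 genes named were chosen after their values were seen, most of them to complete a small count. Promoter sequences, 250 bases before the start, came from RefSeq for 12847 measured genes, and those printed were chosen for their motif after the values were seen. The fit was tested on simulated data. Alternatives covered dim probes, scaling, background correction, variance model, probe choice, samples fitted, each normal array and the thresholds.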

Additional observations from a re-analysis of the deposited data

Results flagged for a closer look

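For 12 named genes the calls of the 2 tumor lines against normal prostate had opposite signs. The lines share their normal arrays, and the difference between the lines was not tested. Both lines lay above background for 6 of them, where the T23 value exceeded that of T1525, as a log2 difference, by 7.67 for Axl, 7.66 for Lgals1, 5.03 for Pdgfra, 3.72 for Egfr, 3.42 for Ifit2 and 2.87 for Eno2. T1525 lay at background for Lox, Dkk3, Twist2 and Gap43. With its value set to the threshold the difference was at least 8.10 for Lox, 6.82 for Dkk3, 4.80 for Twist2 and 4.93 for Gap43. The values as measured differed by 8.38, 7.33, 5.66 and 5.64 for those genes. T23 lay at background for Igf2 and Lamb3, which measured -7.56 and -6.68 against T1525, and -7.56 and -5.92 with T23 set to the threshold. Against normal prostate, Lox differed by 4.27 in T23 and, with the T1525 value set to the threshold, by -3.83 in T1525. Igf2 differed by -4.01 in T23 and by 3.54 in T1525, with the T23 value, just under the threshold, set to it.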

How the results depend on the processing

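The counts of called genes stayed within 1.5 times of 1842 higher and 1713 lower under every alternative run except 1: median scaling left 1209 higher genes, and 2027 lower. With a fold of at least 4 in place of 2, 375 genes lay above and 689 below both normal arrays. Without one normal array, 1737 to 1796 genes lay at least 2-fold above and 1826 to 1873 at least 2-fold below the other. The fit without T1525 gave the same values. Of 193 named genes called, 163 were called the same way under every alternative with a test that fitted them. The filters on dim probes left out some genes, such as Grem1 where 2 arrays above background were required. Genes left out were not counted as lost. The other 30 lost the call under some alternative. These were 21 genes under median scaling, 19 under cyclic loess, 16 as the mean of the probes and 10 under normexp. An intensity trend ended the call of 1 gene and each filter on dim probes that of 1, with overlap. Of the 30, 9 lost it under neither scaling (B2m, Bcl2, Cdh2, Fgf10, Hmga2, Insig1, Pate4, Sdf2l1 and Smox). The cause was not tested. Another 7 gained a call under some alternative, among them Vim, Myc, Snai2 and Cdkn1a. The sign turned for Bub1 (-0.16 under median scaling), Foxa2 (-0.036 under cyclic loess) and, as the mean of all probes, Cdkn2a (0.0068), Chga (0.0457) and Dst (-0.0852), none of which was called. Among the 48 lists, the median difference turned negative under median scaling for oncofetal and imprinted genes (-0.15) and for sterol and fatty acid synthesis (-0.0503). No paired analysis was possible because T23, a line from a TRAMP mouse, and normal prostate of wild-type mice form no pairs. Genes at background on all arrays had no measurable difference, and the number of arrays limits all values.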

Other observations

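These values were chosen after the data were seen. Of 10 Y-linked genes measured, 2 lay above background in both normal arrays, and both lay at background in T23. Eif2s3y lay at 6.22 in T23, 7.72 in T1525 and 10.36 and 10.44 in normal prostate. Kdm5d lay at 6.06 in T23, 6.53 in T1525 and 8.19 and 7.97 in normal prostate. Only 1 of the 10, Zfy2, lay above background in T23, at 6.93.

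The neighbours of Cdkn2a and Cdkn2b on chromosome 4 did not share their background values in T23. Mtap, a methionine salvage enzyme, lay at 11.95 in T23, 9.97 in T1525 and 9.36 and 9.09 in normal prostate, 6.58-fold higher in T23. Klhl9 lay at 10.43 in T23, 10.41 in T1525 and 8.77 and 8.66 in normal prostate, 3.28-fold higher in T23.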
